A study of Mus musculus with 48 samples.

Results

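Of the 11709 elements of a massively parallel reporter assay in embryonic mouse cortex, 6 carried the coordinates of 3 places near genes of the Notch pathway: Hes1, Hes5 and Mfng. They were chosen by those coordinates, 1 element of the E14 class and 1 of the Shadow class at each locus. All 6 had a value in all 10 columns of the deposited table. The assay puts short stretches of DNA into reporter plasmids and reads how much reporter RNA each yields for the plasmid DNA delivered.

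The plasmids were electroporated in utero into the somatosensory cortex of C57BL/6JRj embryos between embryonic days 12 and 16 (E12 to E16). The cortex was collected 24 h after that, at ages E13 to E17. Neural stem cells (NSC, sorted as Pax6+) and intermediate progenitors (IPC, sorted as Tbr2+) gave 24 biological samples, 2 or 3 per cell type and age, and each was sequenced as DNA and as RNA. The deposited table pools these samples into 1 activity value per element and column, and its 10 columns are the cell types at each age. The spread between embryos is therefore not known, and the ages of a cell type are the only repeats. Gene expression is not part of these values, so the sorted cell types could not be checked against marker genes. Read depth behind each value is unknown. E14 class and Shadow class are names of element sets, whereas age E14 is the embryonic day. The sources used here do not say what the set names stand for. Nor do they say whether a Shadow element carries the sequence of the E14-class element with the same coordinates.

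Notch signalling acts between neighbouring cells. A ligand on a cell binds the receptor on its neighbour, the receptor is then cleaved, and the freed fragment enters the nucleus and, with Rbpj, switches on target genes. Hes1 and Hes5 are such targets, transcriptional repressors that hold back proneural genes and keep neural stem cells of the cortex dividing. Mfng is a fringe enzyme that adds sugar to Notch receptors and so shifts which ligands they answer to.

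The elements lie outside every gene annotated on GRCm38.p6, which has the mm10 coordinates, and are thus neither exonic nor intronic there. The Hes1 elements are at chr16:30001301-30001566 (mm10, as in the element names), 63.8 kb from the span of Hes1, which is the nearest protein-coding gene. The long noncoding RNA gene 4632428C04Rik is closer to them, at 7.10 kb. The Hes5 elements are at chr4:154949675-154949940, 10.7 kb from the span of Hes5 and 14.2 kb from that of Pank4. Hes5 runs on the plus strand, and the RefSeq start site of its promoter entry is 11.0 kb further on, so these elements are upstream of it. The Mfng elements are at chr15:78751017-78751282, 4.60 kb from the span of Mfng and 23.8 kb from that of Card10. Nearness does not show that an element regulates the gene. The element sequences and strands were not used here.

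Each activity is given first as a multiple of the median of the scrambled controls in the same column. Relative activity is the log2 of that multiple plus 0.1, less the mean of the scrambled controls, so 0 stands for the controls. The scrambled limits leave 2.5% of the controls outside on either side. They differed between columns: the upper limit was 13.3 times the scrambled median in NSC at age E13 and 2.64 times in NSC at age E17. The upper limit was also wide in IPC at age E13 (8.04) and at age E16 in IPC (7.71) and NSC (7.33). The same multiple therefore weighs less in these columns than in those with narrow limits.

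All 3 E14-class elements averaged above the upper scrambled limit in intermediate progenitors, and the Hes1 element did so in neural stem cells too. In IPC the relative activity was 1.55 ± 1.24 (SD over 5 ages) for Hes5, 1.41 ± 1.57 for Hes1 and 1.15 ± 1.28 for Mfng, against an upper limit of 0.98. The 3 values lie within the spread over ages of each other. Of all non-scrambled elements, 8.61% passed this limit, and of the E14 class 21.3%. In NSC only Hes1, at 1.31 ± 1.90, passed the upper limit of 1.06, as did 6.05% of non-scrambled elements and 10.6% of the E14 class. Hes5 stood at 0.63 ± 0.56 and Mfng at 0.05 ± 0.62. Over all 10 columns Hes1 (1.36) and Hes5 (1.09) passed the limit of 0.73 and Mfng (0.60) did not, with 9.74% of non-scrambled elements and 23.1% of the E14 class above it. In this average none of 955 scrambled controls stood above Hes1 or Hes5, which allows a share of up to 0.314%. With all ages in, none of the 6 fell below the lower limit over all columns or in IPC, as 1.74% and 2.05% of non-scrambled elements did. Hes1 ranked 49 and Hes5 ranked 101 of 889 E14-class elements, and Mfng ranked 275.

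The Hes1 element of the E14 class had the highest mean of the 6 over all columns, and its values differed widely between ages. In NSC it stood at 5.78 times the scrambled median at age E13, 8.71 at age E14, 7.46 at age E15, 0.435 at age E16 and 0.805 at age E17. It was thus high at the 3 earlier ages and below the scrambled median at the last ones. The scrambled median itself was 0.164 in NSC at age E13 and 2.37 in NSC at age E17. Before division by it, the deposited NSC scores of the element were 0.949, 4.68, 2.10, 0.175 and 1.91 at ages E13 to E17. In IPC the multiples were 3.26 at age E13, 0.780 at age E14, 14.0 at age E15, 1.21 at age E16 and 5.17 at age E17. High and low IPC values alternated between neighbouring ages, and they overlapped the NSC values. The limits of single columns were passed in NSC at ages E14 and E15 and in IPC at ages E15 and E17. At age E13 the element stayed below both limits, with 8.18% of controls higher in NSC and 11.2% in IPC. Its SD over ages, 1.90 in NSC and 1.57 in IPC, compares with a median of 0.87 and 0.82 among scrambled controls.

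The means of Hes1 in each cell type rest on few ages. The NSC mean fell short of its limit without age E14 (0.91 against 1.15) and without age E15 (0.96 against 1.21), and by the mean MAD score, the authors' score scaled by the spread of the controls (5.65 against 5.67). The IPC mean fell short without age E15 (0.86 against 1.08). The mean over both cell types stayed above its limit with each age left out, at 0.91 to 1.83.

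The Hes5 element of the E14 class was led by 1 column. In IPC it stood at 14.5 times the scrambled median at age E13, 1.70 at age E14, 4.13 at age E15, 2.81 at age E16 and 1.33 at age E17. In NSC it stood at 0.984, 2.45, 1.20, 2.34 and 1.93 times the scrambled median at ages E13 to E17. It was above the mean of the controls in 9 of 10 columns, by moderate amounts apart from IPC at age E13, the only column in which it passed the limit. IPC and NSC values overlapped. Without age E13 the IPC mean was 1.06, still above its limit of 1.00, and the mean over both cell types was 0.94 against 0.76. Both means kept their side of the limit whichever age was left out.

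The Mfng element of the E14 class averaged near the controls in NSC. In IPC it stood above the scrambled median at all ages but the first. Its NSC multiples were 2.27, 0.763, 1.34, 0.840 and 0.752 at ages E13 to E17. Its IPC multiples were 0.905 at age E13, 8.87 at age E14, 3.45 at age E15, 1.63 at age E16 and 2.03 at age E17. The only column above its limit was IPC at age E14, where 0.202% of controls were higher. In IPC 6.63%, 30.2% and 18.3% of controls were higher at ages E15, E16 and E17, and in NSC at age E13 25.3% were. The IPC mean fell short of its limit without age E14 (0.68 against 1.21) and without age E15 (1.04 against 1.08), and also by the mean MAD score (4.56 against 5.10).

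Of the 3 Shadow-class elements at the same coordinates, none passed a limit over all columns, at 0.50 for Hes1, 0.17 for Hes5 and -0.62 for Mfng. Hes1 did pass the upper limit without age E15 (0.92 against 0.81), and Mfng the lower one without age E14 (-1.03 against -0.82). The Hes1 Shadow element reached 35.0 times the scrambled median in IPC at age E17, the second highest Shadow value in that column. Its other IPC multiples were 0.703, 2.49, 0.212 and 3.80 at ages E13 to E16, and its NSC multiples lay between 0.514 and 2.49 with a median of 0.699. Its IPC mean of 1.07 passed the limit, but without age E17 it was 0.11; it also fell short without age E14 (1.02 against 1.21) or E16 (0.90 against 1.14).

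The Hes5 Shadow element stood between 0.668 and 2.56 times the scrambled median in NSC and between 0.779 and 3.09 in IPC, highest at age E17 in both and past no column limit. The Mfng Shadow element stood at 0.0777, 2.41, 0.390, 0.364 and 0.374 times the scrambled median in NSC at ages E13 to E17. It was thus low at 4 of 5 ages, and its NSC mean of -1.08 lay below the lower limit of -0.95, as did 2.15% of non-scrambled elements. That call was lost without age E13 (-0.66 against -0.88) or E17 (-1.04 against -1.09), and by the MAD score (-0.33 against -0.68). In IPC it stood at 0.469, 1.92, 0.250, 2.93 and 0.923 times the scrambled median.

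Column by column, the E14-class elements passed the upper limit in 6 of 30 values and the Shadow-class elements in 1 of 30. Of all non-scrambled elements, 3.17%, 4.12%, 3.49%, 3.41% and 6.52% passed it in NSC at ages E13 to E17. The shares in IPC were 5.38%, 5.84%, 3.77%, 4.64% and 6.85%. Below the lower limit were 0 of 30 E14-class values and 2 of 30 Shadow-class values, those of Mfng in NSC at age E13 and of Hes1 in IPC at age E15. The background below it was 3.49%, 3.50%, 2.66%, 3.11% and 2.86% in NSC at ages E13 to E17, and 4.35%, 3.31%, 3.37%, 4.13% and 3.21% in IPC. The Hes1 element gave 4 of the 6 upper calls, with 2 in each cell type. Of the non-scrambled elements, 2.45% passed in 2 or more NSC columns, and for IPC the share was 3.95%.

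By the adjusted p-values in the authors' deposited table, under 0.05 in a column, the E14-class elements were called 6 times at Hes1, 3 times at Hes5 and 2 times at Mfng. At Hes1 these were 3 ages of each cell type, a number that 4.83% of the non-scrambled set reached among NSC columns and 5.18% among IPC columns. The Shadow elements were called 4, 2 and 1 times. In that table the shares of non-scrambled elements called were 15.3%, 14.7%, 12.5%, 19.4% and 13% in NSC at ages E13 to E17, and 19.6%, 11.3%, 14.9%, 16.1% and 18.7% in IPC. The same threshold took in 6.16% to 15.7% of scrambled controls, so single calls are weak. Calls in 6 or more columns, as at Hes1, were made for 1.14% of non-scrambled elements and for 0 of 955 scrambled controls. Calls in 3 or more columns, as at Hes5, were made for 21.1% and 10.5%, and calls in 4 or more, as for the Hes1 Shadow element, for 9.15% and 2.51%.

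No element at these loci differed between the cell types beyond the scrambled limits of -1.41 and 1.22. IPC minus NSC was 1.11 ± 1.72 (SD over 5 ages) for the Mfng element of the E14 class, with IPC higher at 4 of 5 ages, a pattern shared by 20.9% of non-scrambled elements (4 or more ages). It was 0.92 ± 1.75 for Hes5 and 0.10 ± 2.24 for Hes1, each with IPC higher at 3 of 5 ages. Without age E13 the Hes5 value was 0.25. The background was 5.15% of non-scrambled elements above the upper limit and 3.01% below the lower. Exact permutation of the 10 columns gave two-sided p = 0.119 for Mfng, 0.175 for Hes5 and 0.944 for Hes1. After Benjamini-Hochberg adjustment over 9886 elements the exact permutation p was 0.806, 0.854 and 0.996. With ages paired, exact sign flips cannot give a p under 0.0625. Over the whole table the exact permutation test called 0 elements after adjustment and 668 at an unadjusted p under 0.05, and limma with age as a block called 0 and 708. The smallest p that the 252 arrangements of the exact permutation test allow is 0.00794. A call after adjustment over 9886 elements would need many elements at that floor, so its 0 calls do not show that the cell types are alike.

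In the Shadow class IPC minus NSC was 1.15 ± 2.97 for Hes1, 0.92 ± 1.34 for Mfng and -0.05 ± 0.52 for Hes5 (exact permutation adjusted p = 0.939, 0.911 and 0.996). Without age E13 the Mfng element of the E14 class stood at 1.73, past a limit of 1.27. The Hes1 Shadow element passed its limits without age E13 (1.78) or E15 (1.78) and stood at -0.01 without age E17. By the MAD score the Hes5 element of the E14 class (4.98) and the Hes1 Shadow element (10.5) passed the upper limit of 4.57.

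At single ages the direction at Hes1 turned over. The E14-class element of Hes1 was higher in NSC by 3.24 at age E14 (IPC minus NSC of -3.24, lower limit -2.51) and higher in IPC by 2.46 at age E17 (upper limit 2.41). At these ages 3.74% of non-scrambled elements lay below the lower limit (age E14) and 4.60% above the upper one (age E17). Mfng was higher in IPC by 3.46 at age E14, where 3.83% passed the upper limit of 2.17. Hes5 was higher in IPC by 3.61 at age E13, just past the limit of 3.59, which 3.63% passed. The Hes1 Shadow element was higher in IPC by 5.75 at age E17. The remaining differences at single ages lay within the limits. Those limits left 2.83% of non-scrambled elements below at age E13, and 2.87% above and 3.57% below at age E15. At age E16 they left 4.54% above and 4.11% below, and at age E17 3.28% below.

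Over age, the Hes1 element of the E14 class fell relative to the controls in neural stem cells by the scrambled limits, but not by the exact permutation test. Its slope was -0.93 per day on the log2 scale, below the lower limit of -0.81, as in 2.46% of non-scrambled elements, while its IPC slope was 0.21, within the limits. Exact permutation of the 5 NSC ages gave a two-sided p of 0.183 for the slope (adjusted 0.770 over 10162 elements). The smallest p that 5 ages allow is 0.0167. With an age left out the limits change too. The NSC slope lost its side of the limit without age E14 (-0.83 against -0.98), E16 (-0.71 against -0.84) or E17 (-1.07 against -1.22). IPC minus NSC slopes differed by 1.14 per day, above the limit of 0.96 that 3.39% passed. This was lost without age E14 (0.83 against 1.09) or E17 (1.10 against 1.52) and by the MAD score (3.04 against 3.13).

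The other E14-class slopes lay within the limits, at 0.19 in NSC and -0.58 in IPC for Hes5 and at -0.27 and -0.00039 for Mfng. Without age E13 the IPC slope of Mfng was -0.76, past its limit of -0.74, and by the MAD score that of Hes5 was past its lower limit (-4.46 against -2.75), as was its difference of slopes (-4.83 against -3.02). The Hes1 Shadow element rose in IPC by 1.17 per day, above the limit of 0.63 that 4.56% of non-scrambled elements passed. That slope was 0.42 without age E17 (exact permutation p = 0.167, adjusted 0.849). Its slope in NSC was -0.12, and the difference of slopes was 1.28, or 0.27 without age E17. The Hes5 Shadow slopes were 0.34 in NSC and 0.30 in IPC, and the Mfng Shadow slopes 0.05 and 0.25, all within the limits. Shares past the limits that no member crossed with all ages in were 3.33% for a rising NSC slope, 3.86% for a falling IPC slope and 3.58% for a lower difference of slopes. Over the whole table the exact permutation test of slopes called 0 elements in NSC (389 at an unadjusted p under 0.05) and 0 in IPC (424).

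The E14-class element averaged above its Shadow counterpart at all 3 loci, as in 66.3% of 759 pairs, and no difference passed the test after adjustment. E14 minus Shadow was 1.22 ± 1.63 (SD over 10 columns) at Mfng, with the E14-class element higher in 8 of 10 columns, as in 22.4% of 759 pairs (8 or more columns). It was 0.92 ± 1.46 at Hes5 and 0.86 ± 2.84 at Hes1, each with the E14-class element higher in 6 of 10. Exact sign flips over the columns gave two-sided p = 0.0391 for Mfng, 0.0703 for Hes5 and 0.359 for Hes1. These flips take the 10 columns as independent, although each NSC column has an IPC column of the same age. The values adjusted over 759 pairs were 0.237, 0.292 and 0.685 (exact sign flips). Of the 759 pairs, 0 passed the sign flips after adjustment and 143 at an unadjusted p under 0.05. In 128 of these (16.9% of pairs) the E14-class element was higher. Limma called 4 pairs after adjustment. The smallest p that the 1024 sign arrangements allow is 0.00195. A call after adjustment would need many pairs at or near that floor, so the 0 calls do not show that the classes are alike. The median difference of all pairs was 0.28, and Mfng, Hes5 and Hes1 ranked 76, 144 and 154 among them.

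By cell type, the difference at Mfng was 1.12 in NSC and 1.31 in IPC, with the E14-class element higher at 4 of 5 ages in each. At Hes5 it was 0.43 in NSC and 1.40 in IPC, with the largest gap in IPC at age E13 (14.5 against 0.912 times the scrambled median). At Hes1 it was 1.39 in NSC and 0.34 in IPC. There the E14-class element was far higher in IPC at age E15 (14.0 against 0.212) and far lower at age E17 (5.17 against 35.0), and without age E15 the mean difference was -0.01. Whether the differences at a locus themselves differ between cell types was not tested.

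The 3 E14-class elements did not share a pattern over the 10 columns. Pearson's r of relative activity was -0.02 between Hes1 and Hes5, 0.05 between Hes1 and Mfng and -0.26 between Hes5 and Mfng, within the range of -0.59 to 0.62 that holds 90% of pairs of E14-class elements. Within a locus r between the E14-class and Shadow elements was -0.25 at Hes1, -0.43 at Hes5 and 0.15 at Mfng. These are descriptions over 10 columns, which share the plasmid library and, within a column, the scrambled controls.

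The E14-class elements whose activity correlated most with that of Hes1 over the columns lay within Npas3 (r = 0.89), 6.74 kb from Pnliprp1 (r = 0.84) and 82.0 kb from Lmo4 (r = 0.77). Those most like Hes5 lay 126 kb from Hhipl2 (r = 0.90), 2.44 kb from Gas1 (r = 0.90) and within Cryba2 (r = 0.87). Those most like Mfng lay within Dscam (r = 0.84), Robo1 (r = 0.78) and Kctd21 (r = 0.78). They are the 3 highest of 888 correlations for each member, given as a description. The correlation takes no account of level. The element within Npas3 averaged 0.16 in NSC and 0.44 in IPC, against 1.31 and 1.41 for Hes1. The elements near Hhipl2 (1.02) and within Robo1 (1.25) and Kctd21 (1.38) passed the upper IPC limit of 0.98. The others stayed within the limits of both cell types.

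A list of 51 genes of the Notch pathway and its targets found few other E14-class elements. Besides the members, 8 had a list gene as the nearest protein-coding gene. Of these 2 (25%) passed the upper limit over all columns (limit 0.73). The share was 23.1% in the E14 class and 9.74% among all non-scrambled elements. Near Sox9, a gene of stem cells and glia, the element at 196 kb passed it (0.79) and that at 52.6 kb stood at 0.46. The 2 elements within Maml2, which encodes a coactivator of the Notch nuclear complex, stood at 0.01 and -0.25, and that within Dner, which encodes a transmembrane protein related to the ligands, at 0.16. The median of these 8 was 0.08, against 0.29 for all E14-class elements. A wider count, taking elements with a list gene either nearest or within 100 kb, held 14 elements besides the members. Of these 6 (42.9%) were above the limit, against 23.1% of the class, and the median was 0.51. The 6 elements this adds have another gene nearest. They lie near Ncstn (-0.16, 1.34 and 1.49) and Aph1a (1.13), which encode subunits of the receptor-cleaving gamma-secretase, the ligand gene Dll1 (0.96) and Id1 (0.55). In the Shadow class 0 of the 14 elements of the wider count with values in all columns, members included, passed the limit, against 5.55% of the class.

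Within 500 kb of the members the only other E14-class element lay within Prdm16, 349 kb from the Hes5 elements. Its relative activity was 1.52 in NSC and 1.37 for IPC, above the limits of both cell types, and its Shadow counterpart at -0.72 and 0.70.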

How the data were processed

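Reporter activity was measured in NSC and IPC at 5 ages (48 libraries, 24 biological samples, grouped by their titles). The submitters' processing notes name cutadapt, without a version, and build mm10. The sources used here do not give the aligner or the counting of barcodes. The deposited activity is a score without a unit, pooled over biological samples by the authors. The deposited MAD score equals activity minus the scrambled median over 1.4826 times the scrambled median absolute deviation (largest difference 4.66e-12). The deposited p-value is its upper-tail normal p, Benjamini-Hochberg adjusted within the column (largest difference 6.11e-15).

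For each column the ratio to the scrambled median was taken, a pseudocount of 0.1 was added before log2, and the scrambled mean was subtracted; differences of low values are thereby understated. Means, differences and least-squares slopes over columns were set against limits leaving 2.5% of scrambled controls on either side, for all non-scrambled elements. Exact permutation and sign-flip tests, with Benjamini-Hochberg adjustment over the whole table, treat ages as observations, so p-values measure the spread between ages and not between embryos. Scripts were tested on simulated data (Python 3.11.15, numpy 2.4.6, pandas 2.3.3, R 4.3.3, limma 3.58.1). Genes came from GRCm38.p6. Named elements are the members, E14-class elements nearest to, or within 100 kb of, a gene of the pathway list, the 3 most correlated with each member, and those within 500 kb. Alternatives were another pseudocount (0.01 or 0.5), centring on the scrambled median, the MAD score, limma, and each age left out. The members and lists were chosen with earlier results of these data known. Single elements near 1 gene of the pathway list are not reported here.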

Additional observations from a re-analysis of the deposited data

Results flagged for a closer look

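The change with age differed between the cell types beyond the scrambled limits (-0.92 and 0.96 per day) at both Hes1 elements, measured as the IPC slope minus the NSC slope. For the E14-class element it was 1.14 per day, from -0.93 in NSC and 0.21 in IPC. That difference was not past its limit without age E14 (0.83 against 1.09) or E17 (1.10 against 1.52), or by the MAD score (3.04 against 3.13). For the Shadow element it was 1.28 per day, from -0.12 in NSC and 1.17 in IPC, and 0.27 without age E17. Of all non-scrambled elements 3.39% lay above the upper limit.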

How the results depend on the processing

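No paired analysis was possible by biological replicate because the deposited columns pool the samples and carry no replicate number; pairing was by age or column only. Centring on the scrambled median kept all 42 results. It moves elements and limits by the same amount, so it could change a sign but no call. With limma the 9 results it was run for stayed uncalled. Its differences are the same means by construction, so only a call could have changed. By the mean MAD score 9 results crossed a limit and 5 turned sign. The Hes1 E14-class NSC level (5.65) and slope difference (3.04), the Mfng E14-class IPC level (4.56) and the Mfng Shadow NSC level (-0.33) were no longer past their limits. Hes1 Shadow IPC minus NSC (10.5) and level over all columns (5.36), and Hes5 E14-class IPC minus NSC (4.98), IPC slope (-4.46) and slope difference (-4.83), were newly past them. The sign turned for the Hes1 Shadow NSC level (0.13), the Mfng E14-class slope difference (-0.94) and the Mfng Shadow level over all columns (0.038), IPC level (0.40) and NSC slope (-0.48). With pseudocount 0.5, Hes1 Shadow IPC minus NSC (1.08) was newly past its limit, and the Mfng E14-class NSC level (-0.014) and Mfng Shadow NSC slope (-0.026) turned sign. With pseudocount 0.01 the Mfng E14-class IPC slope (0.014) did. The cause was not tested.

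The ranges with each age left out in turn follow. The mean over all columns was 0.11 to 0.92 for Hes1 Shadow, -0.13 to 0.27 for Hes5 Shadow and -1.03 to -0.28 for Mfng Shadow. The NSC mean was 0.91 to 1.93 for Hes1 E14, -0.37 to 0.12 for Hes1 Shadow, -0.072 to 0.39 for Hes5 Shadow, -0.19 to 0.16 for Mfng E14 and -1.63 to -0.66 for Mfng Shadow. The IPC mean was 0.86 to 1.84 for Hes1 E14, 0.11 to 1.81 for Hes1 Shadow, -0.18 to 0.28 for Hes5 Shadow, 0.68 to 1.53 for Mfng E14 and -0.55 to 0.23 for Mfng Shadow. IPC minus NSC was -0.49 to 0.93 for Hes1 E14, -0.0058 to 1.78 for Hes1 Shadow, 0.25 to 1.29 for Hes5 E14, -0.25 to 0.063 for Hes5 Shadow, 0.52 to 1.73 for Mfng E14 and 0.45 to 1.27 for Mfng Shadow. The NSC slope was -1.36 to -0.71 for Hes1 E14, -0.30 to 0.17 for Hes1 Shadow and -0.72 to 0.37 for Mfng Shadow. The IPC slope was -0.0055 to 0.41 for Hes1 E14, 0.42 to 1.46 for Hes1 Shadow, -0.78 to -0.19 for Hes5 E14, -0.045 to 0.42 for Hes5 Shadow, -0.76 to 0.27 for Mfng E14 and -0.016 to 0.51 for Mfng Shadow. The difference of slopes was 0.83 to 1.76 for Hes1 E14, 0.27 to 1.61 for Hes1 Shadow, -1.07 to -0.19 for Hes5 E14, -0.19 to 0.068 for Hes5 Shadow, -0.70 to 0.65 for Mfng E14 and -0.038 to 0.70 for Mfng Shadow. E14 minus Shadow was -0.012 to 1.56 for Hes1. Read depth is unknown, so its limit on these values cannot be given.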
